A study of Mus musculus with 8 samples.

Results

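The comparison described here is that of adult male offspring that all ate a high-fat diet after weaning and differed in what their dams had been fed. It rests on 4 of the 8 arrays of the series, taken by their titles: 2 arrays of liver from offspring of dams kept on a standard breeder diet (here BD_HF) and 2 arrays of liver from offspring of dams moved at embryonic day 10.5 from that breeder diet to a defined low-fat diet with sufficient vitamin A (TD.07291, 12% of energy as fat, here LF_HF). Both groups were wild-type C57Bl/6J mice, were weaned onto the same diet with 60% of energy as fat (D12492), and were killed at 14 weeks of age after a 4 h fast. The other 4 arrays, 2 of low-fat offspring of low-fat dams (LF_LF) and 2 of offspring kept on a low-fat vitamin A deficient diet (TD.07655) through gestation and after weaning (VAD_VAD), entered the fit to share the estimate of spread and are given as values only where they place a gene. The breeder diet and TD.07291 are different feeds, so a difference in fat and a difference in any other component cannot be told apart. The labels do not give the composition of the breeder diet. The labels do not say whether the samples of a group are separate animals or litters, so any p-value speaks of sample-to-sample spread, which may be technical.

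The liver is the organ in which dietary fat is oxidised, stored as droplets or re-exported, and in which surplus carbohydrate is turned into fatty acids. Peroxisome proliferator-activated receptor alpha drives the oxidation genes in the fasted or fat-fed state, and SREBP-1c and the liver X receptors drive the synthesis genes. Mouse liver is also sexually dimorphic: the pulsatile growth hormone of males, read through the transcription factor STAT5, keeps a set of male-biased genes on and a set of female-biased genes such as Cyp2b9 low. Diet during gestation and lactation is a known influence on each of these programmes in adult rodents.

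One of the 4 arrays stood apart. LF_HF replicate 1 had 2707 spots marked as outliers by the image software against 46 to 316 on the other 7 arrays, a median negative-control signal of 74.2 against 24.2 to 28.7, and 88.4% of spots well above background against 57.6% to 64.7%. Its correlation with the other arrays over genes was at most 0.92, and that between the 2 BD_HF arrays was 0.99. The gap between the LF_HF arrays depended on level: in the dimmest quartile of genes replicate 1 was higher than replicate 2 by a median of 1.90 log2 units, and in the brightest quartile the difference was -0.88. The matching medians for the 2 BD_HF arrays were 0.38 and -0.25. The median difference BD_HF minus LF_HF was -0.70 in the dimmest quartile and 0.35 in the brightest, and 0.11 and -0.09 without LF_HF replicate 1. Fitted differences and list medians are therefore given with and without that array (marked "without" in brackets), and a list of bright genes is to be read against 0.35 rather than 0. Replicate 1 of each group lay on one slide and replicate 2 on another, so that differences within a slide are the differences between same-numbered samples.

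**Figure D1:**
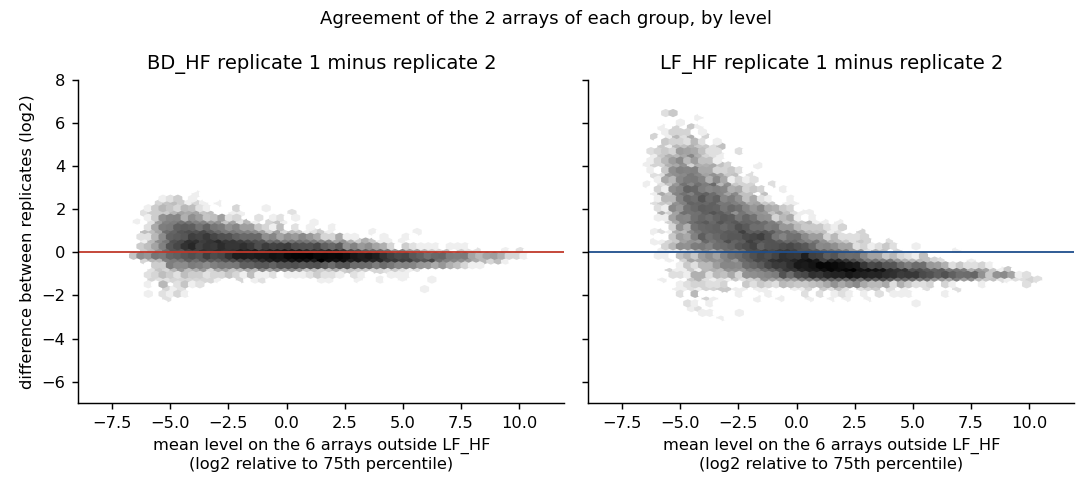
Each panel plots, for all genes with a value on both arrays of a group, replicate 1 minus replicate 2 (log2) against the mean level on the 6 arrays outside LF_HF (log2 relative to each array's 75th percentile), with darker cells holding more genes on a log scale. The BD_HF pair runs close to 0 at all levels, and the LF_HF pair bends from well above 0 among dim genes to a median of -0.88 in the brightest quartile.

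The labelled tissue was borne out by its defining transcripts. Albumin (Alb) had BD_HF levels of 10.59 and 10.61 and LF_HF levels of 9.53 and 10.76 on the log2 scale relative to the 75th percentile, which is the scale of all levels below. Apoa1, Ttr, Cps1 and Hnf4a were well above background on all 4 arrays. Of the 16 hepatocyte markers with a value on each of these arrays, 0 separated the groups.

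The probe letters matter for reading this comparison, because the clearest results rest on single probes or on probes for close relatives. An array spot reports the transcript that is complementary to its 60 bases, of which the first 30 are shown, and positions are those of mm9, the build of the deposited files. Tmem150b, a transmembrane protein gene, had a pair of probes that did not behave alike, at chr7:4658619-4658678 and chr7:4675413-4675472, both on the minus strand, and Moxd1, a monooxygenase-like gene, had 1 probe, at chr10:24022208-24022266 on the plus strand.
Tmem150b, probe used: cttcccggagggaattgttatttgggatta
Tmem150b, other probe: tggggcgtcaaaacctggcaaaaccagcta
Moxd1: cactcagtgctaccctctgggtcgatctga
The probes for the hepcidin genes Hamp (chr7:31727490-31727549, minus strand) and Hamp2 (chr7:31707520-31707579, minus strand) matched at 42 of 59 aligned bases (71.2%). They are shown over the first 30 aligned bases, with the 7 bases that differ in capitals, since these genes differed between the groups in opposite directions.
Hamp: tctgctgtAaAtgctgtaacaaTTccCAGt
Hamp2: tctgctgtCaGtgctgtaacaaACccTCCt

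Over 17361 genes, 0 were called higher (0% of genes tested) and 1 was called lower (0.00576%) in BD_HF than in LF_HF at an adjusted p under 0.05 (limma with Benjamini-Hochberg adjustment). Without LF_HF replicate 1, 0 genes were called in either direction (0%). At an unadjusted p under 0.05 the counts were 490 higher (2.82%) and 461 lower (2.66%), and without that array 1133 higher (6.53%) and 370 lower (2.13%). Left with LF_HF replicate 1 as the sole array of its group, that is without LF_HF replicate 2, the fit called 671 genes higher and 2419 lower, the largest change of any array left out. Since so few genes passed, the lists below are described by how many members had both BD_HF values above, or both below, both LF_HF values, which is called separation here. Some genes belong to several lists, so the counts of different lists are not independent. The separation rule was chosen after the values were seen. It was met by 2886 genes higher in BD_HF (17.8% of the 16244 genes with all 4 values) and 1553 lower (9.56%), and with a gap of at least 1 log2 unit by 53 genes higher (0.326%) and 89 lower (0.548%). Of those 89, 62 were not well above background on either BD_HF array. The median difference over all genes was 0.17, and 0.01 without LF_HF replicate 1, 0.34 within slide 1 and 0.03 within slide 2.

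Tmem150b was the one gene called. Its level was -7.05 and -6.93 in BD_HF and -2.74 and -2.69 in LF_HF. Neither BD_HF array was well above background and both LF_HF arrays were, so the probe was at least 4.73-fold brighter in LF_HF, and at least 4.82-fold without LF_HF replicate 1. Since 0 arrays of the other 3 groups were above background, the probe entered the test only through LF_HF, the group in which it is high, and a gene kept in that way had to differ. The fitted difference was -4.27 (SE 0.32, adjusted p = 0.030, limma), with an adjusted p of 0.083 without LF_HF replicate 1, 0.083 with slide as a block and 0.70 when only the 4 arrays of this comparison were fitted. The call was lost on leaving out any one array except LF_HF replicate 2. With no filter on dim probes the gene's other probe was the one used, with a difference of -2.10 and an adjusted p of 0.64 (limma). The LF_LF arrays, at -7.42 and -7.58, and the VAD_VAD arrays, at -6.89 and -6.39, were as dim as BD_HF, so that LF_HF was the one group with signal. The other Tmem150b probe read -5.47 and -5.97 in BD_HF against -0.34 and -6.89 in LF_HF, and was well above background on LF_HF replicate 1 alone. With normexp background correction in place of the deposited processed signal the difference of the first probe shrank to -0.76 (adjusted p = 0.25).

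Moxd1, a male-biased gene of mouse liver, had the largest difference of all. Its level was -2.46 and -4.34 in BD_HF against 2.89 and 4.30 in LF_HF, with all 4 arrays well above background. The groups were 5.35 log2 units apart at their nearest, and the fitted difference was -7.0 (SE 0.69, 128-fold, adjusted p = 0.12, limma). Without LF_HF replicate 1 it was -7.70 (adjusted p = 0.090), with normexp background correction it was -5.01 (adjusted p = 0.0021), and with genes tested only where all 4 arrays were above background it stayed at -7.0 with an adjusted p of 0.0086 (limma). In the other direction, the adjusted p was 0.20 with slide as a block, 0.55 with no filter on dim probes, 0.70 with only the 4 arrays of this comparison and 0.99 with array weights. LF_LF, at -5.22 and -5.80, and VAD_VAD, at -4.75 and -5.06, were lower still than BD_HF. BD_HF thus lay between LF_HF and the low-fat groups.

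The other lower genes of small unadjusted p sat near background in BD_HF. Dmrta1, a DMRT-family transcription factor gene, was at -7.15 and -7.02 against -2.24 and -3.30 in LF_HF, at least 4.55-fold, and 3.15-fold without LF_HF replicate 1. Grm8, a metabotropic glutamate receptor gene, was at -5.27 and -6.87 against -1.64 and -2.75, at least 6.79-fold, and 4.62-fold without that array. Fabp5, which encodes a fatty acid binding protein that also carries retinoic acid, was at -6.01 and -6.27 against -2.56 and -3.94, at least 3.27-fold, and 2.03-fold without it. None of these passed the adjusted threshold: the adjusted p was 0.46 for Dmrta1 and 0.78 for Grm8 and Fabp5 (limma). Unlike the first pair of genes, the VAD_VAD arrays were near LF_HF for Fabp5, at -2.23 and -2.20. Lysmd2, a LysM-domain protein gene, was above background throughout, at -4.32 and -4.06 against -2.01 and -2.48 (difference -1.95, SE 0.42, without -1.71). The remaining 4 of the 10 lower genes with the smallest p carry provisional names.

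**Figure D2:**
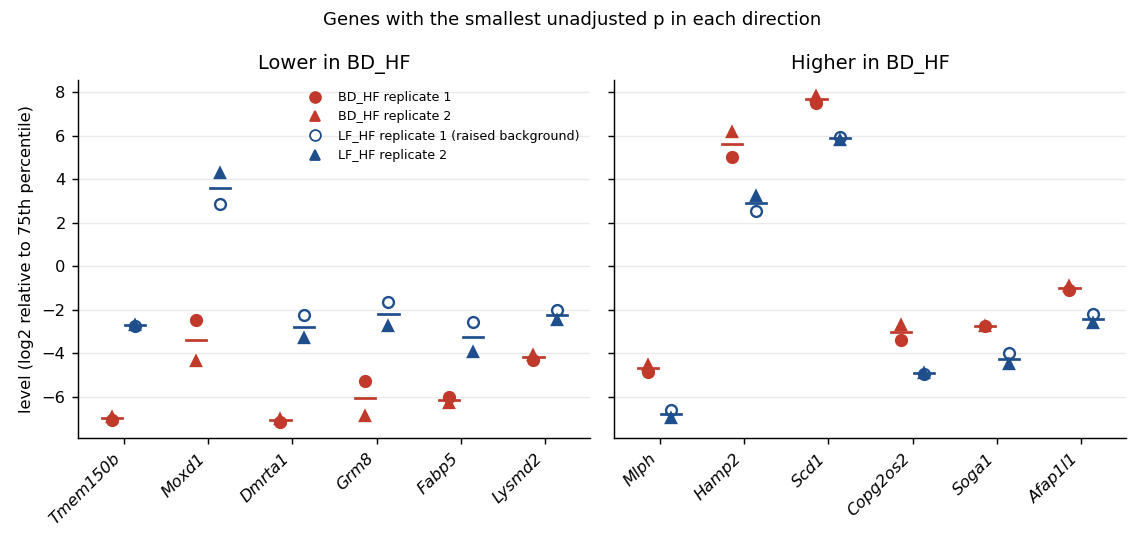
Levels (log2 relative to the 75th percentile) on each of the 4 arrays for the named genes of smallest unadjusted p, lower in BD_HF on the left and higher on the right; bars mark group means, and the open circle is LF_HF replicate 1. The genes were chosen among those whose groups do not overlap, and Moxd1 has the widest gap, from 2.89 down to -2.46.

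Among genes higher in BD_HF, Hamp2, a mouse paralogue of the iron hormone hepcidin, was at 5.05 and 6.18 in BD_HF and 2.54 and 3.24 in LF_HF. The difference was 2.73 (SE 0.52, 6.61-fold, adjusted p = 0.78, limma), and 2.38 without LF_HF replicate 1. Hamp itself, which encodes the hepcidin that blocks iron export, went the other way, at 6.47 and 6.08 against 6.61 and 8.06 (difference -1.06, SE 0.68, without -1.79). The Hamp groups were 0.14 log2 units apart and most of that difference came from LF_HF replicate 2. Scd1, the stearoyl-CoA desaturase that makes monounsaturated fatty acids, was at 7.53 and 7.83 against 5.96 and 5.82 (difference 1.79, SE 0.35, 3.46-fold, adjusted p = 0.78, without 1.86), and its 2 LF_HF arrays lay within 0.2 of each other. In the low-fat groups Scd1 was higher than in LF_HF, at a mean of 7.22 in LF_LF and 8.64 in VAD_VAD.

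Further genes on the higher side lay nearer to background. Mlph, the melanophilin gene, was at -4.86 and -4.52 against -6.61 and -6.96, with 1 of 4 arrays above background, so it has no fold. Copg2os2, a transcript from the opposite strand of a coatomer subunit gene, was at -3.38 and -2.68 against -4.93 and -4.88, at least 3.01-fold (3.47-fold without LF_HF replicate 1), and whether the array tells it from its sense partner is not known here. Afap1l1, an actin filament associated protein gene, was at -1.10 and -0.89 against -2.21 and -2.61 (difference 1.41, SE 0.31, without 1.61). A second Afap1l1 probe overlapped, at -2.16 and -1.90 against -1.29 and -4.40, with LF_HF replicate 2 not above background. Soga1 was at -2.76 and -2.76 against -3.99 and -4.48 (difference 1.48, SE 0.32), with LF_HF replicate 2 not above background and a bound of at least 3.30-fold without replicate 1. The mean of its 2 probes gave -0.27, and on the second probe LF_HF replicate 1 alone was above background. The other named ones were Riken genes, 6030422H21Rik with a difference of 2.59 (SE 0.47, without 2.60) and 5330421C15Rik with 1.88 (SE 0.32, without 2.06).

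Female-biased liver genes tended to be higher in BD_HF, and Moxd1, Ces4a and Dnaic1 among the male-biased ones were lower. Of 23 female-biased genes with all 4 values, 12 were separated higher in BD_HF (52.2%, against 17.8% of all genes) and 0 lower. The gap was at least 1 log2 unit for 4 of them (0.326% of all genes). The median over the 25 measured was 0.77 against 0.17 over all genes. Without LF_HF replicate 1 the median was 0.47 against 0.01, and 16 genes had both BD_HF values above the remaining LF_HF array (34.0% of all genes did) while 1 was below (30.9%). Of 25 male-biased genes, 0 were separated higher and 4 lower (16%, against 9.56% of all genes), with a median of -0.19, and without LF_HF replicate 1 the median was -0.68 with 22 below and 1 above. No member of either list passed the adjusted threshold. An unadjusted p under 0.05 was found for 7 female-biased genes, all higher, and 3 male-biased genes, all lower. Over all genes 2.82% were higher and 2.66% lower at that threshold.

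Cyp2b9, a steroid hydroxylase of female liver, was at 1.13 and 2.52 in BD_HF and -2.71 and -3.0 in LF_HF. The difference was 4.68 (SE 1.13, 25.7-fold, adjusted p = 0.78, limma) and 4.83 without LF_HF replicate 1. A second Cyp2b9 probe gave 0.96, and it was above background on LF_HF replicate 1 but not on replicate 2. The neighbouring Cyp2b13 followed at -1.27 and -0.02 against -2.17 and -4.41 (difference 2.64, SE 1.24, without 3.76). A second Cyp2b13 probe overlapped, at -4.23 and -4.10 against -1.47 and -7.12, with LF_HF replicate 2 not above background. Cyp2b10, the member induced by the xenobiotic receptor CAR, overlapped between the groups (difference -0.04, SE 1.05, without 0.47). These family members are close in sequence, so signal may be shared between their probes. Both low-fat groups had Cyp2b9 at levels above LF_HF, with means of 0.70 in LF_LF and -0.23 in VAD_VAD.

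The prolactin receptor gene Prlr was at 1.55 and 1.59 against 0.06 and 0.77, a difference of 1.15 (SE 0.37, without 0.80). Ntrk2, a neurotrophin receptor gene with female-biased expression in liver, was at -0.05 and -0.02 against -1.31 and -2.93, a difference of 2.09 (SE 0.67, without 2.90). Cyp17a1, a steroid hydroxylase, was separated by a smaller gap, at 4.0 and 3.79 against 3.18 and 3.56 (difference 0.52, SE 0.52, without 0.33). On the male side, the carboxylesterase gene Ces4a was at -1.85 and -2.08 against -1.14 and 0.33 (difference -1.56, SE 0.52, without -2.30), and the dynein chain gene Dnaic1 at -0.74 and -0.89 against 1.00 and 0.33 (difference -1.48, SE 0.41, without -1.14). The best-known male genes were not separated. Hsd3b5, a steroid reductase, was at 5.52 and 5.47 against 5.49 and 6.18, Elovl3, a fatty acid elongase, at 1.36 and 2.64 against 1.68 and 2.46, and Mup1, a urinary pheromone carrier, at 10.63 and 10.63 against 9.57 and 10.93.

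The growth hormone axis itself was separated about as often as genes at large. Of 19 genes with all 4 values, 3 were separated higher (15.8%, against 17.8% of all genes) and 0 lower, with a median of 0.11, and -0.10 without LF_HF replicate 1. The receptor gene Ghr differed by 0.29 (SE 0.36, without -0.13) and the circulating growth factor gene Igf1 by 0.12 (SE 0.39, without -0.37). Igf1 had 4 probes that did not behave alike: another pair gave 0.06 and 0.21, and the remaining one read 1.45 and 1.18 against -1.74 and -1.48, a difference of 2.93 with all 4 arrays above background, and 2.80 without LF_HF replicate 1. Socs2, a STAT5-induced feedback inhibitor, was at 2.32 and 2.35 in BD_HF and 1.85 and 4.24 in LF_HF, so that LF_HF replicate 2 was the high array. Cish, a second such inhibitor, was at 3.15 and 2.40 against 1.65 and 3.53. Bcl6, a repressor of male liver that opposes STAT5, was at 3.42 and 3.98 against 0.91 and 3.48, with LF_HF replicate 1 low.

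Growth hormone and inflammatory signals reach liver genes through STAT factors, whose core site is TTCNNNGAA. It is its own reverse complement, so both strands are searched at once. The upstream DNA of Moxd1, Hamp and Hamp2 is shown because, of the named genes searched one by one, only these had a match. Tmem150b, Cyp2b9, Cyp2b13, Acot1, Acot3, Acot4, Ppara, Prlr, Clec4g, Stab2, Kdr, Me1, Dnaic1, Ces4a and Hsd3b5 were searched too and had 0 matches. In the RefSeq promoters of GRCm38.p6 the 250 bases before the annotated start were searched. The motif was in 7.18% of all 27025 promoters and in 6.12% of the 11739 promoters of tested genes. Among tested genes with a promoter it was in 1 of 17 female-biased and 3 of 18 male-biased ones. A second motif, a pair of AGGNCA repeats set 1 base apart, of the kind bound by PPAR alpha, was searched on both strands. It was in 0.333% of all promoters, in 0.29% of those of tested genes and in 0 of 26 tested fatty acid oxidation genes. Moxd1 had 1 STAT-type match starting at position -150 relative to the gene start, Hamp 1 at -97 and Hamp2 1 at -94, in capitals below. A match is a run of letters and was not tested as a binding site.
Moxd1, chr10:24223267-24223516, plus strand: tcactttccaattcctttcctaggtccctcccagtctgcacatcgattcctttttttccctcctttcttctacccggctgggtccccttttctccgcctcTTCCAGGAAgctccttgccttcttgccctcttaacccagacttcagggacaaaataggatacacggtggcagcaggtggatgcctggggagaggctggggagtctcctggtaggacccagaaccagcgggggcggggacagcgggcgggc
Hamp, chr7:30944030-30944279, minus strand: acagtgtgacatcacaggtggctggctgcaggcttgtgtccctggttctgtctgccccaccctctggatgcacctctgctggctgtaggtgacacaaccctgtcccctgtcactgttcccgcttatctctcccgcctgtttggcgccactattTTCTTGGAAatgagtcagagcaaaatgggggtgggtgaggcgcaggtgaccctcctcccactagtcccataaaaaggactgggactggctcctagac
Hamp2, chr7:30924182-30924431, minus strand: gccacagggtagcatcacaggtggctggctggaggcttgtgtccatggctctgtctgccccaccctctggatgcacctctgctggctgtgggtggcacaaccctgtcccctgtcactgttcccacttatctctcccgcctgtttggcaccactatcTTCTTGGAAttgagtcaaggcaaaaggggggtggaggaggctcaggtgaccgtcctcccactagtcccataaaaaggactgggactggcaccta
Hamp and Hamp2 thus carry the same 9 letters at nearly the same place, and their transcripts differed between the groups in opposite directions.

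Among fatty acid oxidation genes the widest gaps were at strongly induced members, and the core enzymes differed less. Of 36 with all 4 values, 20 were separated higher (55.6%, against 17.8% of all genes) and 0 lower (against 9.56%). The gap was at least 1 log2 unit for 3 (0.326% of all genes). An unadjusted p under 0.05 in that direction was found for 7 (2.82% of all genes). The list median was 0.59, against 0.35 for genes of the brightest quartile, and without LF_HF replicate 1 it was 0.17. Then 22 members were above LF_HF replicate 2 (34.0% of all genes were) and 6 below (30.9%). Cyp4a14, a microsomal omega-hydroxylase and a strongly induced PPAR alpha target, was at 4.61 and 5.74 in BD_HF and 1.2 and 2.85 in LF_HF. Its difference was 3.15 (SE 0.73, 8.88-fold, adjusted p = 0.78, limma), and 2.32 without LF_HF replicate 1. Both low-fat groups were higher than BD_HF, with means of 7.10 in LF_LF and 8.50 in VAD_VAD. Cyp4a10, its close relative, was at 5.10 and 6.44 against 2.88 and 4.97.

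The acyl-CoA thioesterase genes named here were also separated higher in BD_HF. Acot3 was at 0.17 and 0.99 against -1.58 and -2.63 (difference 2.68, SE 0.66, without 3.21), Acot1 at 4.30 and 4.55 against 2.28 and 3.42 (difference 1.57, SE 0.57, without 1.00), and Acot4 at 1.62 and 2.01 against 0.09 and 0.70 (difference 1.42, SE 0.35, without 1.12). They lie in a cluster of near-identical genes, so which member is measured is uncertain. Vnn1, a pantetheinase and PPAR alpha target, was at 2.96 and 3.26 against 1.07 and 1.87 (difference 1.64, SE 0.38, without 1.24). Ppara itself was at 5.73 and 5.79 against 4.53 and 5.04 (difference 0.98, SE 0.37), and 0.72 without LF_HF replicate 1. Core enzymes differed less. Cpt1a, which admits fatty acids to mitochondria, differed by 0.57 (SE 0.46) and by 0.25 without LF_HF replicate 1, and Ehhadh, the peroxisomal bifunctional enzyme, by 0.38 (SE 0.48) and -0.18. Fgf21, the fasting hormone of liver, was at -1.56 and -1.65 against -2.70 and 0.18. Pdk4, which shuts pyruvate oxidation, was at -1.73 and 0.03 against -1.17 and -2.35. Both overlapped on these probes. A second Fgf21 probe, above background on all 4 arrays, was separated lower in BD_HF, at -2.23 and -2.36 against -1.46 and -0.17. Its difference was -1.48, and -2.12 without LF_HF replicate 1.

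**Figure D3:**
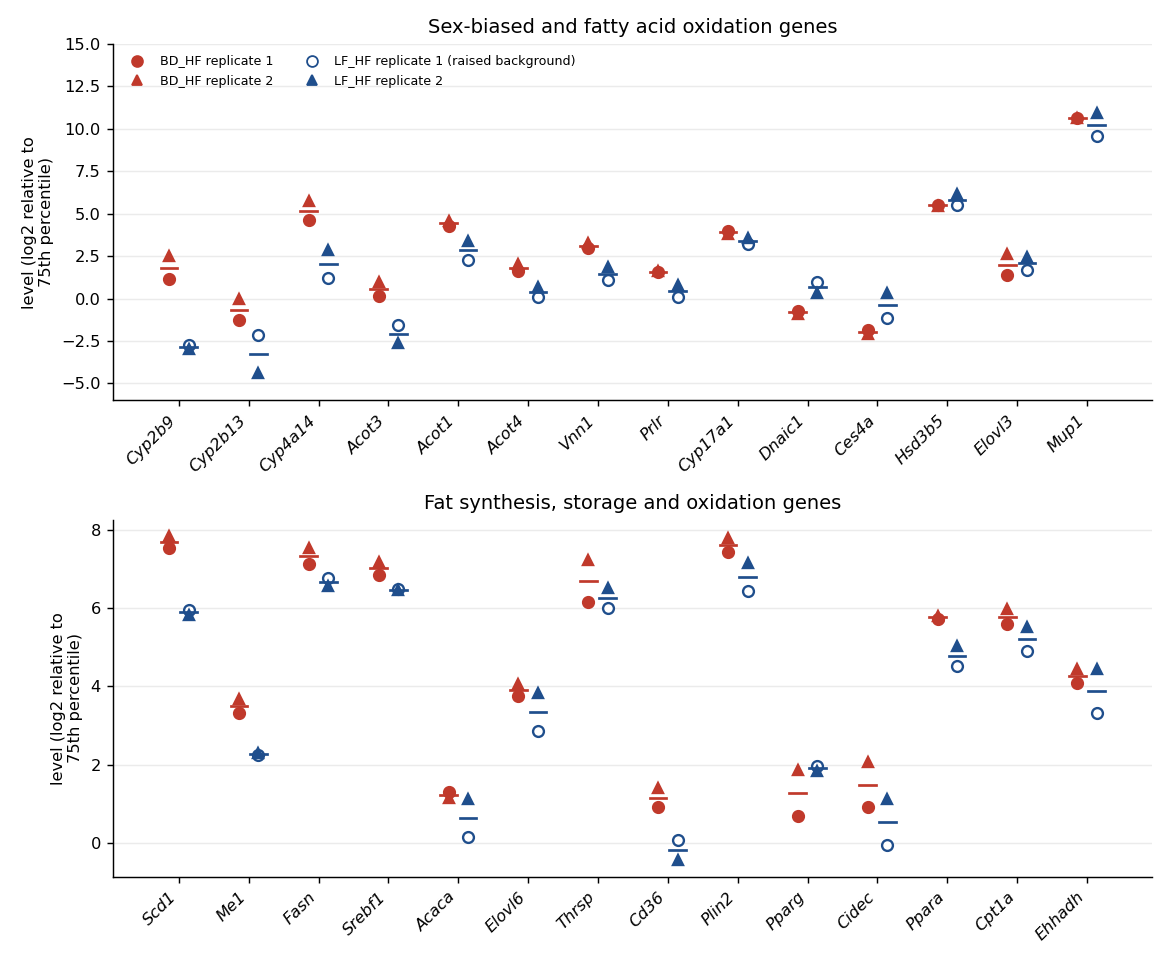
Levels (log2 relative to the 75th percentile) on the 4 arrays for sex-biased and fatty acid oxidation genes (top) and for genes of fat synthesis, storage and oxidation (bottom); bars mark group means and the open circle is LF_HF replicate 1. Cyp2b9, Cyp4a14 and Acot3 lie far apart between groups, Scd1 and Me1 are tightly grouped on both sides, and Elovl3 and Ehhadh overlap.

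Fat synthesis genes were separated higher in 13 of 24 (54.2%, against 17.8% of all genes) and lower in 0 (against 9.56%). The list median was 0.54, against 0.35 for genes of the brightest quartile. An unadjusted p under 0.05 was found for 4, all higher (2.82% of all genes). Without LF_HF replicate 1 the median was 0.25, and 14 members lay above LF_HF replicate 2 (34.0% of all genes did) and 2 below (30.9%). Beside Scd1, the malic enzyme gene Me1, which supplies NADPH, was at 3.31 and 3.67 against 2.24 and 2.30 (difference 1.23, SE 0.32, without 1.2). Fasn, the fatty acid synthase, was at 7.12 and 7.52 against 6.78 and 6.55 (difference 0.65, SE 0.38, without 0.77) and Srebf1, the gene of SREBP-1, at 6.86 and 7.19 against 6.49 and 6.46 (difference 0.55, SE 0.38, without 0.57). Acaca, the acetyl-CoA carboxylase gene, differed by 0.59 (SE 0.45, without 0.10), and its 5 probes ran from -1.17 to 0.59, and from -0.14 to 0.20 without LF_HF replicate 1. Elovl6, a fatty acid elongase, differed by 0.57 (SE 0.40, without 0.09) and Thrsp, a lipogenic regulator, by 0.43 (SE 0.47, without 0.17), and both overlapped between groups.

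Genes of lipid storage and uptake gave 6 of 21 with all 4 values separated higher (28.6%, against 17.8% of all genes) and 0 lower, with a median of 0.44, and 0.33 without LF_HF replicate 1. Cd36, the fatty acid transporter, was at 0.91 and 1.41 against 0.08 and -0.44 (difference 1.34, SE 0.35, 2.53-fold), and 1.60 without LF_HF replicate 1. Plin2, the droplet coat gene, was at 7.42 and 7.80 against 6.44 and 7.15 (difference 0.82, SE 0.40, without 0.46). Pparg, the steatosis-linked PPAR gamma, was at 0.68 and 1.88 against 1.97 and 1.84. The droplet protein genes Cidea and Cidec and the acyltransferase gene Mogat1 overlapped between groups, with differences of -0.32 (SE 0.59, without 0.55), 0.95 (SE 1.37, without 0.37) and -0.04 (SE 0.74, without 1.10). Sterol synthesis gave 2 of 26 separated higher and 2 lower (7.69% each), below the 17.8% and 9.56% of all genes. Its median was -0.01, and -0.0040 without LF_HF replicate 1. Its enzyme genes Sqle and Cyp51 differed by -0.62 (SE 0.55, without -0.39) and -0.68 (SE 0.45, without -0.74), the second with all BD_HF values below all LF_HF values.

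Endothelial markers had the highest share of separated members of the lists described here. Of 18 measured, 15 were separated higher (83.3%, against 17.8% of all genes) and 0 lower, and the median was 1.22. An unadjusted p under 0.05 was found for 13, all higher (2.82% of all genes). Without LF_HF replicate 1 the median was 1.70 and all 18 lay above LF_HF replicate 2 (34.0% of all genes did). Within slide 1 it was 0.73 and within slide 2 it was 1.77. The matching medians of the hepatocyte markers were 0.77 and -0.12. Within slide 1 the endothelial median thus did not exceed the hepatocyte one. None of the 18 endothelial markers passed the adjusted threshold. Oit3, a sinusoidal endothelial secreted protein, was at 2.11 and 2.41 against 1.14 and -0.08 (difference 1.73, SE 0.43, without 2.33). The sinusoidal lectin Clec4g was at 4.87 and 5.24 against 3.92 and 2.94 (difference 1.62, SE 0.44, without 2.11), and the scavenger receptor Stab2, which clears hyaluronan, at 2.17 and 2.63 against 1.34 and 0.80 (difference 1.33, SE 0.34, without 1.60). Kdr, the main VEGF receptor, was at 2.81 and 2.96 against 1.74 and 1.17 (difference 1.43, SE 0.44, without 1.71) and Stab1 at 2.65 and 2.77 against 1.68 and 1.59 (difference 1.07, SE 0.29, without 1.12). On a second Clec4g probe BD_HF was at -3.38 and -3.75 against -1.69 on LF_HF replicate 1, and on a second Stab1 probe at -3.46 and -3.30 against -1.74. LF_HF replicate 2 was not above background on either, so that LF_HF replicate 1 set the LF_HF level there. Pecam1, the general endothelial adhesion marker, overlapped, at -0.45 and -1.07 against -0.03 and -1.44. The 18 markers summed on the linear scale to 101 and 120 on the BD_HF arrays, to 60.9 and 35.1 on the LF_HF arrays, and to 78.2 to 125 on the other 4, so that the LF_HF arrays were the lowest of the 8. In whole liver, fewer cells of a type and less RNA per cell cannot be told apart.

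Other non-parenchymal lists leaned the same way with smaller medians. Macrophage markers were separated higher in 16 of 26 (61.5%, against 17.8% of all genes) and lower in 1 (3.85%, against 9.56%). Their median was 0.37, and 0.53 without LF_HF replicate 1. The Kupffer cell marker Clec4f differed by 0.34 (SE 0.33, without 0.31), Adgre1 by 0.87 (SE 0.35, without 0.91), and Cd68 by 0.82 (SE 0.37, without 0.76). The lipid-associated macrophage genes Trem2, Itgax and Lgals3 differed by 0.35 (SE 0.35, without 0.46), -0.02 (SE 0.57, without 0.92) and 0.14 (SE 0.33, without 0.44). Second probes gave -1.19 for Adgre1, where LF_HF replicate 2 was not above background, and -1.26 for Trem2, which was -0.10 without LF_HF replicate 1. Antigen presentation by MHC class II gave 5 of 9 with all 4 values separated higher (55.6%, against 17.8% of all genes) and 0 lower (against 9.56%). The median was 0.50, and 1.00 without LF_HF replicate 1. H2-Aa was at 1.13 and 1.18 against 0.95 and -0.03, H2-Ab1 at 3.44 and 3.48 against 3.32 and 2.38, and Cd74, the class II chaperone, at 3.53 and 3.76 against 3.47 and 2.81. In all 3 the low value was LF_HF replicate 2. Separation depended on the probe. A second H2-Aa probe overlapped, at 0.61 and 0.79 against 0.68 and -0.47. Further H2-Ab1 probes overlapped at 1.35 and 1.36 against 1.43 and -0.09, and at -0.11 and -0.19 against 0.29 and -1.57. Another H2-Ab1 probe was separated, at 2.30 and 2.25 against 2.21 and 0.93.

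Stellate cell markers, of the vitamin A storing cells of the sinusoid, were separated higher in 9 of 18 with all 4 values (50%, against 17.8% of all genes) and lower in 0 (against 9.56%). Their median was 0.48, and 0.58 without LF_HF replicate 1. The core markers did not lead that count: Pdgfrb differed by 0.29 (SE 0.33, without 0.14), Acta2 by 0.23 (SE 0.34, without -0.09) and Des, without a value on LF_HF replicate 1, by 0.45 (SE 0.44). Extracellular matrix genes were separated higher in 13 of 31 with all 4 values (41.9%, against 17.8% of all genes) and lower in 1 (3.23%, against 9.56%). Their median was 0.34, and 0.65 without LF_HF replicate 1. Sparc, a matrix glycoprotein gene, was at 2.63 and 3.33 against 2.16 and 1.24 (difference 1.28, SE 0.42, without 1.74), and Ccn2, the connective tissue growth factor gene, at 0.65 and 0.61 against 0.01 and -0.84 (difference 1.05, SE 0.37, without 1.47). The fibrillar collagens Col1a1 and Col3a1 differed by 0.66 (SE 0.40, without 0.74) and 0.22 (SE 0.34, without 0.33), with a mean over the Col1a1 probes of -0.74. The other 2 Col1a1 probes gave -1.23 and -1.66, and 0.18 and 0.074 without LF_HF replicate 1. Spp1, osteopontin, differed by 0.62 (SE 0.38, without 0.61) and Timp1 by -0.32 (SE 0.33, without -0.58).

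Neutrophil markers ran against that direction. Of 10 with all 4 values, 0 were separated higher and 5 lower (50%, against 9.56% of all genes), 3 by at least 1 log2 unit (0.548% of all genes). The median over 11 members was -1.74, and -1.20 without LF_HF replicate 1. Of the 11, 6 had only a bound, and with these set at it the medians were -1.19 and -0.04, so that without LF_HF replicate 1 the list no longer lay apart. Cxcr2, the neutrophil chemokine receptor, was at -5.11 and -6.67 in BD_HF and 0.76 and -3.80 in LF_HF, at least 10.9-fold, and Mmp8, the neutrophil collagenase, at -7.06 and -6.94 against -0.98 and -5.13, at least 3.74-fold with LF_HF replicate 1 alone above background. For both the higher LF_HF value was that of the array with the raised background. Without it Cxcr2 was at least 2.24-fold lower in BD_HF, and Mmp8 had no array above background and so no fold. S100a8, a calprotectin subunit, was at -2.11 and -1.47 against -1.3 and -0.46 (difference -0.91, SE 0.40, without -1.33). The BD_HF arrays had summed levels of 2.07 and 2.57 for the list, the LF_HF arrays 7.12 and 7.17, and the other groups 5.81 to 35.8. Of the 10 genes summed, 5 were above background on all 4 arrays, and the LF_HF sums were made up differently. On LF_HF replicates 1 and 2, S100a9 was at 0.85 and 2.47, Cxcr2 at 0.76 and -3.80, and Mpo at 0.36 and -3.88.

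Lymphocyte and cholangiocyte lists had medians of opposite sign with and without LF_HF replicate 1, -0.39 and 0.44 for the first and -0.06 and 0.80 for the second, and 0 and 0.31 for the second with genes near background at their bound. Haemoglobin transcripts, which mark blood in the tissue, were higher in BD_HF. Hba-a1 was at 7.36 and 7.07 against 5.45 and 5.75 (difference 1.62, SE 0.38, without 1.47) and Hba-a2 at 6.93 and 6.72 against 5.15 and 5.30, and these copies cannot be told apart by the array. Hbb-bt, without a value on BD_HF replicate 2, differed by 1.66 (SE 0.47, without 1.58). The summed level of the erythroid list, in which Hba-a1 and Hba-a2 were the highest genes, was 310 and 272 in BD_HF against 99.6 and 132 in LF_HF. Most other erythroid genes did not follow: Alas2, Slc4a1, Ahsp, Car1 and Car2 overlapped between groups. Of 8 genes with all 4 values, 3 were separated higher (37.5%, against 17.8% of all genes) and 0 lower. The median over 10 measured was 0.30, and 0.48 without LF_HF replicate 1. The part of blood in the differences of the vascular lists was not tested.

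**Figure D4:**
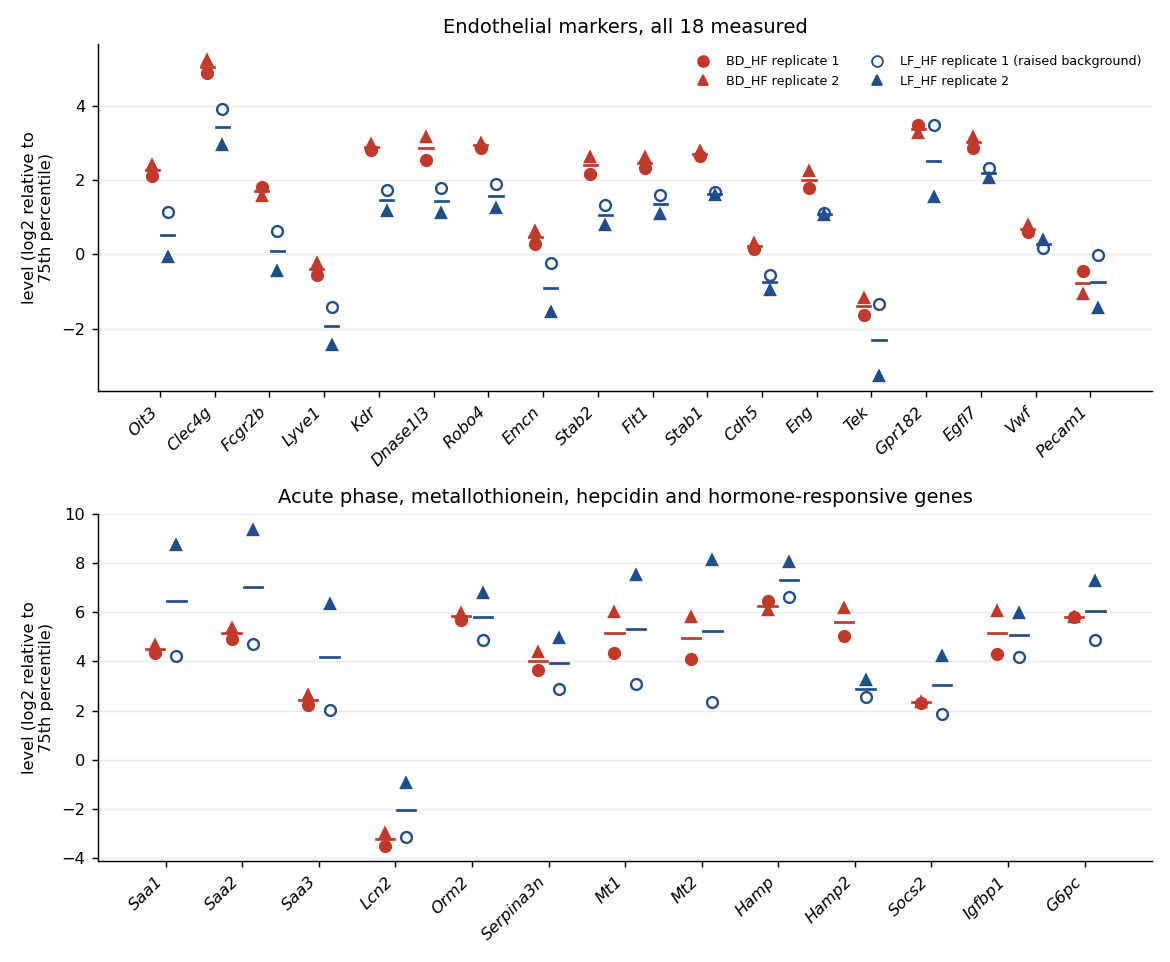
Levels (log2 relative to the 75th percentile) on the 4 arrays for all 18 endothelial markers, ordered by difference (top), and for acute phase, metallothionein, hepcidin and hormone-responsive genes (bottom); bars mark group means and the open circle is LF_HF replicate 1. Oit3 leads the endothelial genes with a difference of 1.73, and Saa1, Saa2, Saa3 and Mt2 are highest on LF_HF replicate 2.

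Acute phase genes showed that the second LF_HF array also differed from its partner. The serum amyloid gene Saa1 was at 4.35 and 4.67 in BD_HF, at 4.22 in LF_HF replicate 1 and at 8.73 in LF_HF replicate 2. Saa2 was at 4.93 and 5.35 against 4.72 and 9.36, Saa3 at 2.23 and 2.64 against 2.03 and 6.34, and Lcn2, lipocalin 2, at -3.50 and -2.99 against -3.16 and -0.96. The zinc-binding metallothionein Mt2 spread over both groups, at 4.09 and 5.81 against 2.34 and 8.13. The groups overlapped for each of these genes. Of 27 acute phase genes with all 4 values, 1 was separated higher and 1 lower (3.7% each, against 17.8% and 9.56% of all genes), and the median was 0.05. Without LF_HF replicate 1 it was -0.62 with 23 genes below LF_HF replicate 2 (30.9% of all genes were). Leaving out the array of raised background thus leaves a single LF_HF sample with high acute phase transcripts. Orm2 and Serpina3n, both liver acute phase proteins, differed by 0.01 (SE 0.58) and 0.08 (SE 1.01), and by -0.94 and -0.96 without LF_HF replicate 1. The glucose-6-phosphatase gene G6pc was likewise high on that one array, at 5.80 and 5.81 against 4.87 and 7.26.

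Retinoid genes are of interest because the dams of LF_HF received a defined vitamin A sufficient diet. Of 28 genes of retinoid handling with all 4 values, 7 were separated higher (25%, against 17.8% of all genes) and 3 lower (against 9.56%), with a median of 0.32, and 0.10 without LF_HF replicate 1. Both shares are near those of all genes. All 3 lower ones had a gap of at least 1 log2 unit (0.548% of all genes did). They were Fabp5, given above, Dhrs9, a retinol dehydrogenase, at -5.92 and -5.94 against -1.45 and -4.08 (at least 4.57-fold, and 1.83-fold without LF_HF replicate 1), and Adh7, an alcohol dehydrogenase that oxidises retinol, at -4.61 and -5.32 against -2.67 and -3.55 (difference -1.85, SE 0.42, without -1.42). Core members of the list did not separate the groups. The carrier Rbp4 was at 10.15 and 10.09 against 9.20 and 10.24, and Lrat, which esterifies retinol for storage, at 0.47 and 1.3 against 0.77 and -0.89. Cyp26a1, the retinoic acid hydroxylase that tracks retinoic acid supply, ranged from -0.48 to 2.00 in BD_HF and from -1.52 to 2.65 in LF_HF. Its spread within each group was wider than the difference of 0.20 (SE 1.3, without 2.28). On the vitamin A deficient arrays its mean was -6.77, far below all 4 of these values.

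**Figure D5:**
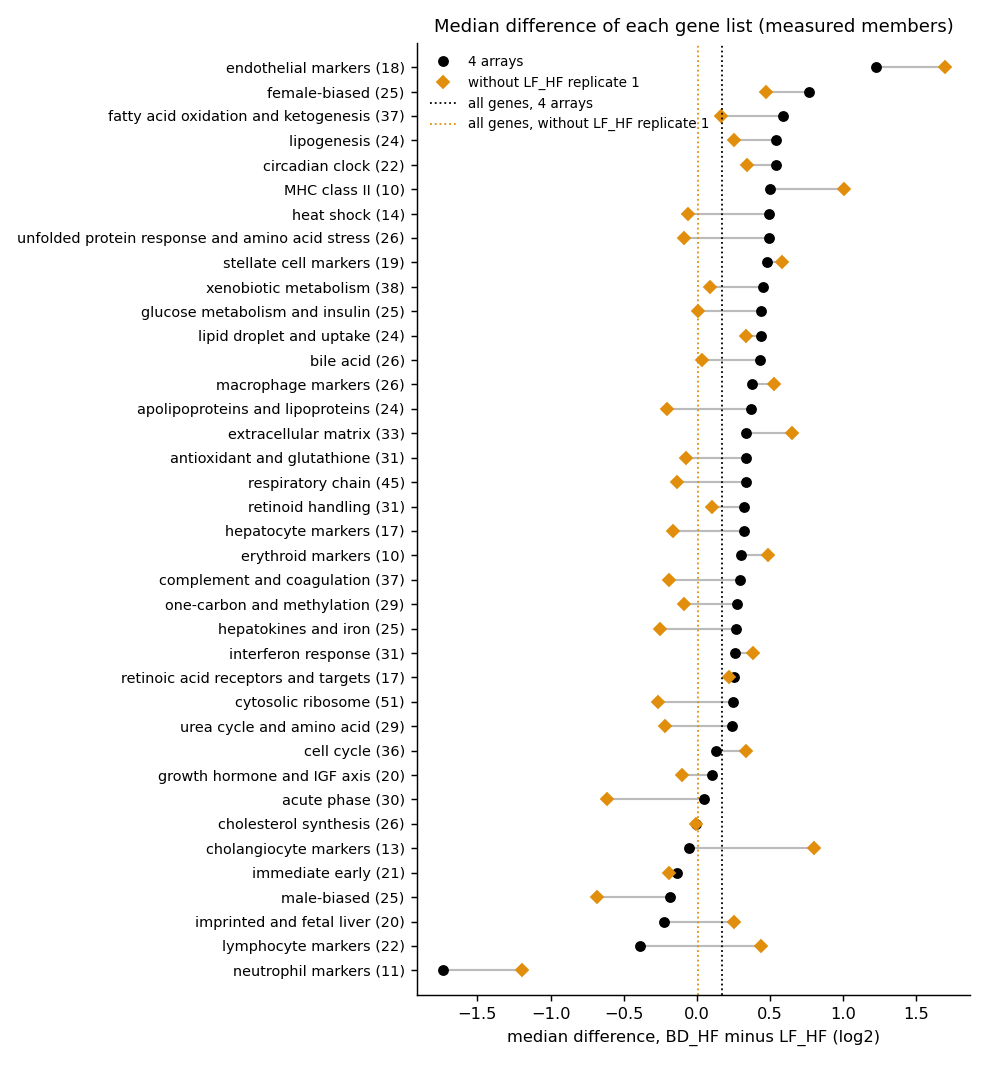
Median difference, BD_HF minus LF_HF (log2), of each list with at least 10 measured members (number in brackets), from the 4 arrays (black circles) and without LF_HF replicate 1 (orange diamonds); dotted lines mark the medians over all genes, 0.17 and 0.01. Endothelial markers lie farthest right and neutrophil markers farthest left under both, with genes near background at their measured values, and acute phase, lymphocyte and cholangiocyte lists move most when the array is left out.

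Circadian clock genes were mostly higher in BD_HF. Of 21 with all 4 values, 13 were separated higher (61.9%, against 17.8% of all genes) and 1 lower (4.76%, against 9.56%). The median was 0.54, and 0.34 without LF_HF replicate 1. Noct, a rhythmic phosphatase linked to lipid uptake, was at 2.37 and 2.27 against 0.96 and 0.72 (difference 1.48, SE 0.45, without 1.60) and Per1 at 0.80 and 1.35 against -0.30 and -0.06 (difference 1.25, SE 0.37, without 1.13). Per2 was at 0.26 and -0.28 against -1.03 and -0.84 and Dbp at 7.27 and 7.52 against 6.66 and 6.66. A second Per2 probe, without a value on LF_HF replicate 1, overlapped, at -1.68 and -2.18 against -2.01. The repressor gene Nr1d1 overlapped, at 0.25 and 1.44 against 0.83 and 0.88, and Arntl, without a value on LF_HF replicate 1, differed by -0.36 (SE 1.29). Bhlhe41, a clock repressor, was the lower one, at -3.89 and -3.26 against 0.90 and -2.70, and its difference went from -2.68 to -0.88 without LF_HF replicate 1.

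A few genes of other pathways were separated lower in BD_HF. Asns, the asparagine synthetase and a target of the amino acid stress factor ATF4, was at -1.22 and -0.45 against 0.83 and 1.05 (difference -1.78, SE 0.39, 3.43-fold), and -1.89 without LF_HF replicate 1. Of 22 unfolded protein response and amino acid stress genes with all 4 values, 3 were separated higher (13.6%, against 17.8% of all genes). Another 2 were separated lower (9.09%, against 9.56%). Trib3 differed by 0.73 (SE 0.51, without 1.14), Atf3 by -0.27 (SE 0.78, without 0.31) and the chaperone Hspa5 by 0.88 (SE 0.57, without -0.04). The ATF4 target Mthfd2, given below, was lower like Asns. Nr0b2, the gene of SHP, a repressor of bile acid synthesis, was at -0.15 and 0.25 against 1.31 and 1.71 (difference -1.47, SE 0.33, 2.76-fold), and -1.67 without that array. Of the bile acid synthesis genes, Cyp7a1 was separated higher on both of its probes, at 2.34 and 2.52 against 2.04 and 1.87 (difference 0.47, SE 0.61, without 0.56) and with a difference of 0.65 on the second, and Cyp8b1 differed by 0.37 (SE 0.66, without 0.52). The immediate early gene Egr1 was at -0.70 and 0.16 against 1.15 and 1.23 (difference -1.46, SE 0.56, without -1.51). The mitochondrial folate enzyme gene Mthfd2, also an ATF4 target, was at -5.34 and -4.49 against -1.31 and -3.44, at least 5.20-fold, and 2.49-fold without LF_HF replicate 1. The DNA methyltransferases Dnmt1 and Dnmt3a differed by -0.47 (SE 0.45, without 0.13) and 0.27 (SE 0.33, without 0.18), and Dnmt3b by -1.11 (SE 0.43, without -1.25), which became 0.62 under quantile scaling.

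Housekeeping lists give the scale against which these are read. Of 46 cytosolic ribosome genes and 44 respiratory chain genes with all 4 values, 0 and 1 were separated higher (17.8% of all genes were) and 0 lower (9.56%). Their medians of 0.25 and 0.33 became -0.27 and -0.14 without LF_HF replicate 1. Hepatocyte markers gave 0.32 and -0.17. The brightest quartile of genes gave 0.35 and -0.09.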

How the data were processed

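Liver RNA of 8 samples in 4 groups of 2 was hybridised to 1-colour Agilent arrays. The deposited intensity values are processed signals made per the file headers with Agilent Feature Extraction 10.7.3.1, which detrends each array and replaces signals near background by a surrogate. Groups follow the titles. Here log2 of the processed signal minus each array's 75th percentile was used, control spots and outlier-flagged spots were left out, spots of a probe were averaged, and probes were kept if the image software marked them well above background on each array of 1 or more groups. Of 41174 gene probes, 28554 had a reference symbol and 26244 were kept, and the brightest probe of each of 17361 genes was tested with limma 3.58.1 (R 4.3.3) on the 8 arrays by group, with Benjamini-Hochberg adjustment at 0.05. The fit was tested on simulated data. A probe not above background on either array of a group has only a bound, taken against the lowest signal well above background, and is given as at least N-fold.

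The comparison and the gene lists were chosen with earlier results of these data known. Genes named are called genes whose groups do not overlap, otherwise the 10 of smallest unadjusted p per direction with groups that do not overlap, and per list its core members and the 2 of largest difference. Ntrk2, Dnaic1, Acot4, Vnn1, Kdr, Stab1, Sparc, Hba-a2, Saa2 and Adh7 fall outside that rule and were named after their values were seen. Alternatives covered background correction, scaling, filters, flagged spots, probe choice, variance model, array weights, blocks, the deposited value table and each array left out. Promoters are those of RefSeq, GRCm38.p6.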

Additional observations from a re-analysis of the deposited data

How the results depend on the processing

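The count of genes called higher was 0 and of genes called lower 1, and 951 genes had an unadjusted p under 0.05 (limma). The lower count became 0 under quantile scaling, without a filter on dim probes, with flagged spots kept, with only the 4 arrays, and with array weights, and 2 under median scaling. With the replicate number as a block, which is also the slide, 0 genes were called in either direction and 1318 had an unadjusted p under 0.05. Same-numbered samples correlated in their deviations from the group means at 0.0994 to 0.303, and 2 numbers are too few to show pairing. Leaving out each array in turn gave 0 to 671 genes higher and 0 to 2419 lower, and every count above 0 came without LF_HF replicate 2. Where 1 array was left in a group it was assumed to vary like the other groups. Tmem150b was not tested under the stricter filter, and Moxd1 was the gene called there, with normexp and with trend and robust variance. With the mean of a gene's probes the difference was -0.27 for Soga1, -0.25 for Acaca, -0.16 for Adgre1, -0.45 for Trem2 and -0.74 for Col1a1, and under quantile scaling it was 0.62 for Dnmt3b. The cause of these reversals was not tested. Bounds, second probes and list medians without LF_HF replicate 1 or with genes near background at their bound were worked out after seeing the data. Arrays per group limit the precision, and genes near background have only bounds.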
